A study of Mus musculus with 35 samples.

Results

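The lungs compared here came from mice that carry the same global deletion of caveolin-1 (Cav1) and spent 6 weeks at 10% oxygen, with or without a transgene meant to return caveolin-1 to endothelial cells. One side was the 6 hypoxia libraries labelled Cav1-RC (3 female and 3 male mice), in which Cav1 was to be re-expressed only in the endothelium of Cav1-KO mice. The other side was the 6 hypoxia libraries labelled Cav1-KO (3 female and 3 male), from the line Cav1(tm1Mls/)J. These 12 libraries, of 35 in all, were selected by genotype and oxygen label, without use of any measured value. All mice were adults of at least 3 months, and the Control strain of the study was B6/129SJ2. The promoter and the species of the Cav1 transgene are not given in the sources used here. By design both lines lack Cav1 in cells other than endothelium, so the comparison asks what endothelial re-expression changes in a hypoxic lung that otherwise stays deficient.

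Of the 34 libraries with a group, 12 came from animals that the study also ran on western blots, called the blot list here. All 6 Cav1-KO hypoxia mice are on it, and 0 of the 6 Cav1-RC hypoxia mice are. Within the 12 libraries, genotype and membership of this list cannot be told apart. The labels give every library the same batch entry, so the list is not called a batch here. Because of this split, 3 comparisons are given side by side. The first was fitted on the 12 hypoxia libraries. The second took the same contrast from a fit of all 34 libraries with a group, with 1 term for the blot list (called the list-adjusted fit). That term was set by 3 groups of female mice that held both kinds, with 3 listed and 5 unlisted libraries. The third compared the same genotypes in normoxia (room air), in 10 libraries of other mice. The list-adjusted fit holds the libraries of both other comparisons, so the 3 are not independent.

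Caveolin-1 is the scaffold of caveolae, the flask-shaped pits of the plasma membrane that are abundant in lung endothelium and in alveolar type 1 cells. Cavins and EHD proteins coat and anchor these pits, and caveolin-1 binds and restrains endothelial nitric oxide synthase (Nos3). Mice without Cav1 are a model of pulmonary arterial hypertension, in which vasoconstrictors, BMP and TGF-beta receptors, potassium channels and Notch signals in the vessel wall are altered.

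The 12 libraries held between 12651977 and 27366004 counts. Totals were 12651977 to 25260984 (median 15548289) on the Cav1-RC side and 15205360 to 27366004 (median 22885743) on the Cav1-KO side (exact two-sided permutation test over 924 splits, p = 0.0801, smallest possible 0.00216). Mitochondrially encoded genes took 1.22% to 2.45% of the counts in the Cav1-RC libraries and 3.74% to 4.86% in the Cav1-KO libraries (exact permutation p = 0.00216). The 10 most abundant genes took 6.77% to 8.67% and 9.39% to 11.7% (exact permutation p = 0.00216). Both measures were higher in every Cav1-KO library, and 54% of the variance over 18237 genes lay on a first component that separated the 2 sides. Xist and the Y-linked genes went against the label in 0 of the 12 libraries and in 3 of the 34, namely Male Control hypoxia replicate 2 and Male Cav1-RC normoxia replicates 1 and 2. Leaving those out took the normoxia calls from 774 to 449 genes. Of the genes named here, 109 kept their direction and side of the threshold in normoxia, 5 lost their call (Mmrn2, Hbb-bt, Ntsr2, Rgs5 and mt-Rnr1) and 3 that were not called turned sign. One female Cav1-KO hypoxia library held 17.4 CPM of Y-linked genes (CPM, read counts of a gene scaled to the size of its library), while the other 5 female libraries of the comparison held 0 to 0.685 CPM.

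Cav1 itself was at the Cav1-KO level in the libraries labelled Cav1-RC. The gene lies at chr6:17306335-17341452 (mm10) and measured 977 to 1361 CPM in the 12 Control libraries. In hypoxia it measured 1.48, 3.02 and 6.48 CPM (lowest, median and highest of 6) in the Cav1-RC libraries and 1.74, 2.48 and 3.93 CPM in the Cav1-KO libraries. The ranges overlapped, and the log2 fold change was 0.44 ± 0.31 (SE; adjusted p = 0.252, edgeR quasi-likelihood test). It was 0.28 in the list-adjusted fit (adjusted p = 0.674) and -0.11 in normoxia (adjusted p = 0.841). The counts thus show the loss of Cav1 in both lines and no measurable return of transcripts assigned to the mouse gene in the libraries labelled Cav1-RC, so every direction below is between libraries by their label. Whether a transgene transcript would be assigned to this gene was not tested. By western blot of whole lung, the study reported caveolin-1 protein in Cav1-RC mice as low yet detectable, and as almost undetectable in Cav1-KO mice. None of the Cav1-RC hypoxia mice sequenced here is named on those blots.

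**Figure D1:**
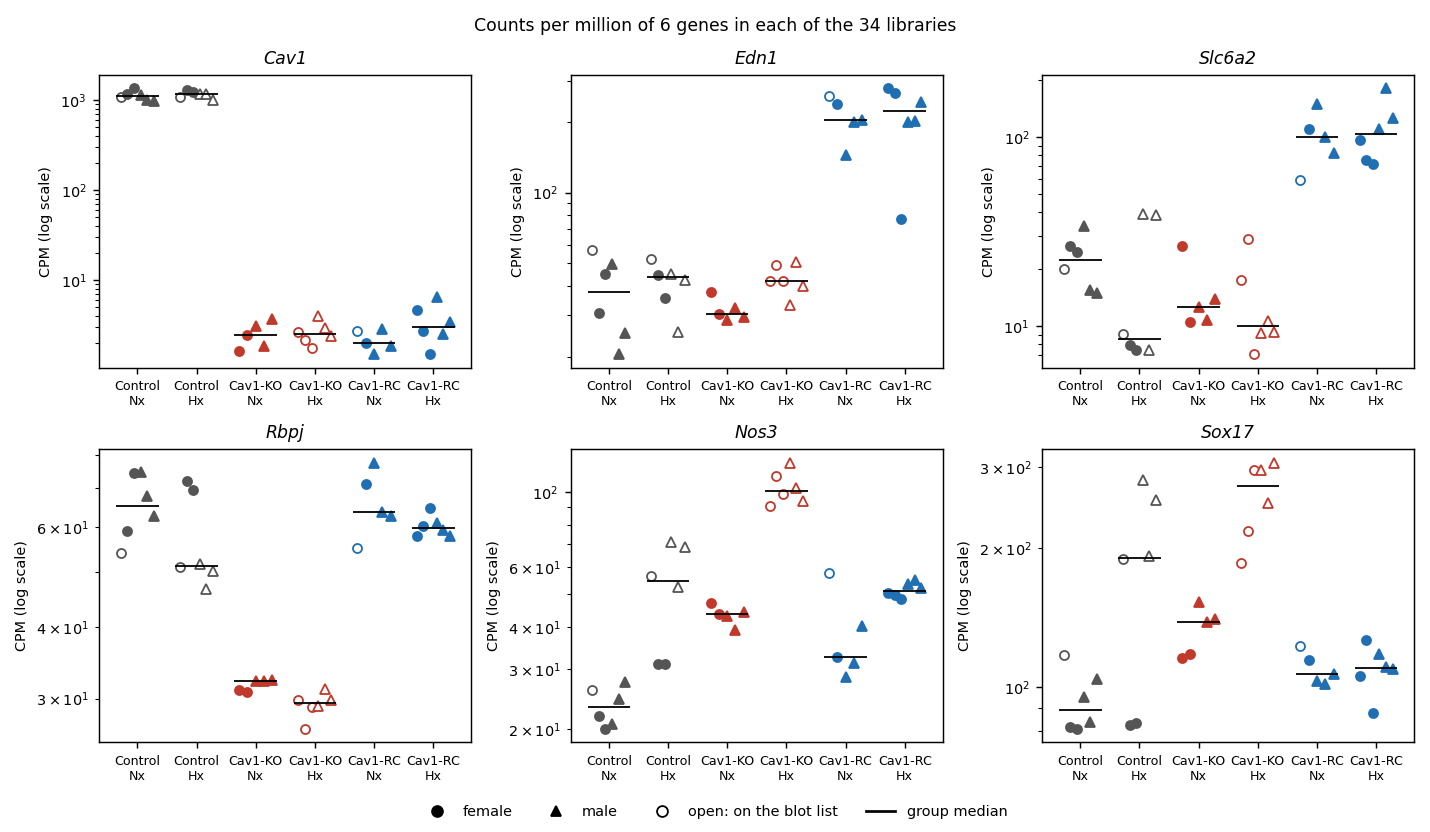
CPM on a log scale of 6 genes (Cav1, Edn1, Slc6a2, Rbpj, Nos3 and Sox17) in each of the 34 libraries, by genotype and oxygen (Nx, normoxia; Hx, hypoxia), with circles for females, triangles for males, open symbols for libraries on the blot list and a bar at the group median. Cav1 sits at 977 to 1361 CPM in Control and below 7 CPM in both other genotypes, while Edn1 and Slc6a2 are highest in the libraries labelled Cav1-RC at both oxygen levels.

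In the 12 libraries, 1571 of 18237 tested genes rose and 1118 fell in Cav1-RC relative to Cav1-KO (absolute log2 fold change above 1 and adjusted p under 0.05), so 14.7% of all genes were called, 8.61% higher and 6.13% lower. The 2 sides did not overlap in CPM for 5232 genes (28.7%). The list-adjusted fit called 445 of 19870 genes higher (2.24%) and 241 lower (1.21%), together 3.45%. The normoxia comparison called 536 of 18085 higher (2.96%) and 238 lower (1.32%), together 4.28%. Of the 2689 genes called in the 12 libraries, 1962 kept their sign in the list-adjusted fit (73%, beside 56.6% of all genes tested in both) and 727 did not. Only 318 genes, 112 of them lower, were called in the same direction in both hypoxia fits, which was 11.8% of the calls of the 12 libraries and 49.8% of those of the list-adjusted fit. Their number was 186 without Female Control normoxia replicate 1, a library that sets the list term. A further 19 genes were called in opposite directions. The normoxia comparison shares no library with the 12 hypoxia libraries, and 46.6% of the genes called in hypoxia had the same sign in it, beside 39% of all genes tested in both. Restricted to the hypoxia groups, where 1 group held both listed and unlisted libraries, the fit with the list term called 23 genes.

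**Figure D2:**
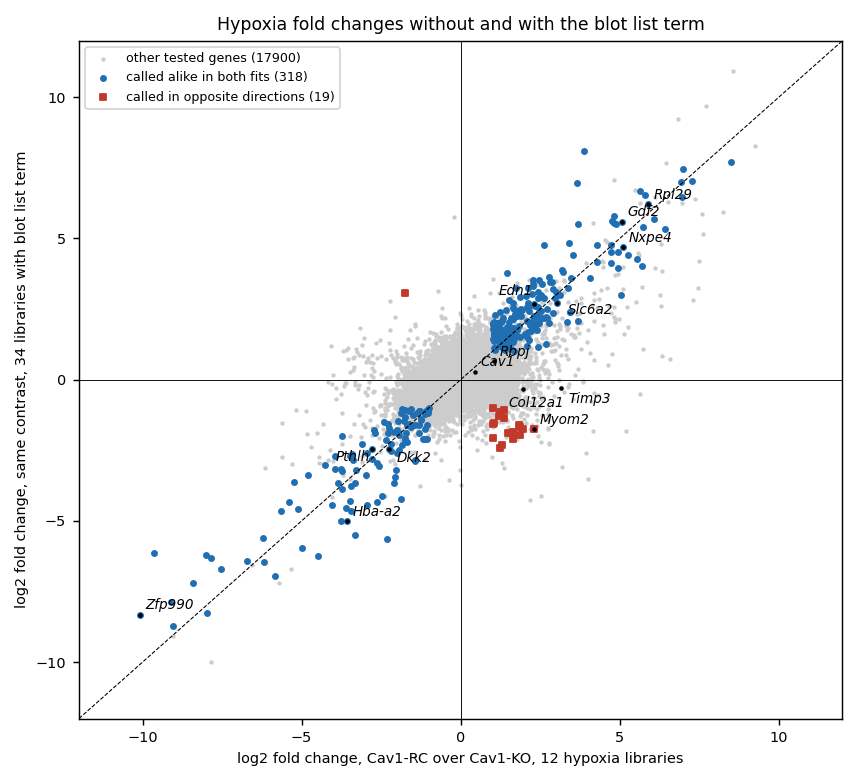
Log2 fold change (Cav1-RC over Cav1-KO, hypoxia) of each tested gene in the fit of the 12 libraries (horizontal axis) and in the list-adjusted fit of 34 libraries (vertical axis), with the dashed line marking equal values. The 318 genes called alike lie along the line, and 18 of the 19 genes called in opposite directions, such as Myom2, lie at the lower right.

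Several genes differed between the 2 labelled lines by far more than the spread of any library, and did so in both hypoxia fits and in normoxia. Of 17639 genes tested in all 3 fits, 116 were called higher and 74 lower in all of them (1.08%). Among the higher genes 81 were protein coding and 12 were pseudogenes, and among the lower genes 42 were protein coding and 22 were pseudogenes. Nxpe4, a member of the neurexophilin and PC-esterase domain family (chr9:48162023-48400025), measured 42.2, 60.3 and 69.0 CPM in Cav1-RC hypoxia and 1.00, 1.71 and 2.62 CPM in Cav1-KO hypoxia. All 6 libraries of one side lay above the other, and Control libraries ranged from 19.4 to 52.3 CPM. Its log2 fold change was 5.11 ± 0.21 in the 12 libraries (adjusted p = 1.25e-08), 4.70 in the list-adjusted fit and 3.93 in normoxia.

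Rpl29, which encodes a protein of the large ribosomal subunit (chr9:106429454-106431568), measured 130.2, 149 and 186 CPM in Cav1-RC hypoxia and 1.76, 2.30 and 4.38 CPM in Cav1-KO hypoxia (log2 fold change 5.88 ± 0.16, list-adjusted 6.21, normoxia 6.62). Control libraries ranged from 0.493 to 172 CPM for this gene, and only Male Control hypoxia replicates 1 and 3 were high. Ribosomal protein genes have near-identical pseudogenes that can share reads, so single members are uncertain. Rps13 had a log2 fold change of -1.002 and its pseudogene Rps13-ps1 of 4.81, while the summed CPM of Rps13 and its 4 pseudogenes was 153 to 193 in Cav1-RC and 217 to 259 in Cav1-KO (log2 difference -0.47, exact two-sided permutation p = 0.00216). Rps13-ps2 measured 0.305 to 0.672 CPM in Cav1-RC and 18.7 to 26.1 CPM in Cav1-KO. Members thus moved in both directions and the family sum was lower in every Cav1-RC library, and whether reads were split between members was not tested.

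Other protein-coding genes were on in one line and nearly absent in the other. Zfp990, a zinc finger gene (chr4:145510759-145539188), had 3 counts summed over the 6 Cav1-RC libraries and 2894 over the 6 Cav1-KO libraries, a ratio of 739 in favour of Cav1-KO after depth (95% counting interval 252 to 3580). The kallikrein gene Klk1b22 (chr7:44112673-44116922) had 5 against 4867 counts (ratio 745, interval 319 to 2300). The olfactory receptor gene Olfr1033 (chr2:86020633-86045171) had 6 against 1680 counts (ratio 214, interval 98.3 to 585). These intervals cover counting error only. Each of the 3 genes was also called lower in the list-adjusted fit and in normoxia, and Control libraries spanned 0 to 23.0 CPM for Zfp990, 0.0522 to 21.7 CPM for Klk1b22 and 6.29 to 25.0 CPM for Olfr1033. When Female Control normoxia replicate 1 was left out, the list-adjusted adjusted p of Zfp990 was 0.131.

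Other protein-coding genes called in the same direction in all 3 fits are described singly. Adamdec1, a metalloprotease of macrophages and dendritic cells, measured 15.4, 18.4 and 28.7 CPM against 2.12, 2.76 and 5.16 CPM (log2 fold change 2.77 ± 0.25, list-adjusted 3.62, normoxia 3.27). Tlr1, a receptor for bacterial lipopeptides, measured 3.92, 7.35 and 14.3 CPM against 0.680, 0.706 and 1.46 CPM (3.21 ± 0.33, list-adjusted 3.80, normoxia 2.12). Both rose in every fit, and no Cav1-RC library lay within the Cav1-KO range. Nnmt, which methylates nicotinamide, rose with log2 fold changes of 1.63, 2.15 and 1.54 in the 3 fits. Pthlh, which encodes parathyroid hormone-related protein, measured 1.37, 2.27 and 3.36 CPM against 12.8, 14.8 and 19.5 CPM and fell by 2.78 ± 0.19 on the log2 scale (list-adjusted -2.45, normoxia -1.97). Control libraries held 0.420 to 2.42 CPM of Pthlh, below every Cav1-KO hypoxia library. Adam23, a disintegrin of the cell surface, fell by 1.93 ± 0.17 (list-adjusted -1.97, normoxia -1.75).

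The share of tested genes called alike in all 3 fits ranged over the autosomes from 0.243% to 4.43%. Chromosome 14 held 27 of them among 610 tested genes (4.43%, against 1.08% over all chromosomes), with 16 higher and 11 lower. In windows of 10 Mb, 11 of 139 tested genes were called on chromosome 14 between 50 and 60 Mb, among them Ang, Slc7a8, Rec8 and Ppp1r3e. A window of chromosome 4 between 140 and 150 Mb held 9 of 109, among them Zfp990, Zfp992 and Zfp984. A window of chromosome 9 between 40 and 50 Mb held 7 of 104, among them Nxpe4, Nxpe2, Nnmt and Rnf26. Chromosomes 10, 11 and X held the lowest shares (0.243%, 0.285% and 0.362%). These windows were picked after the counts were seen, and no test was made of them.

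**Figure D3:**
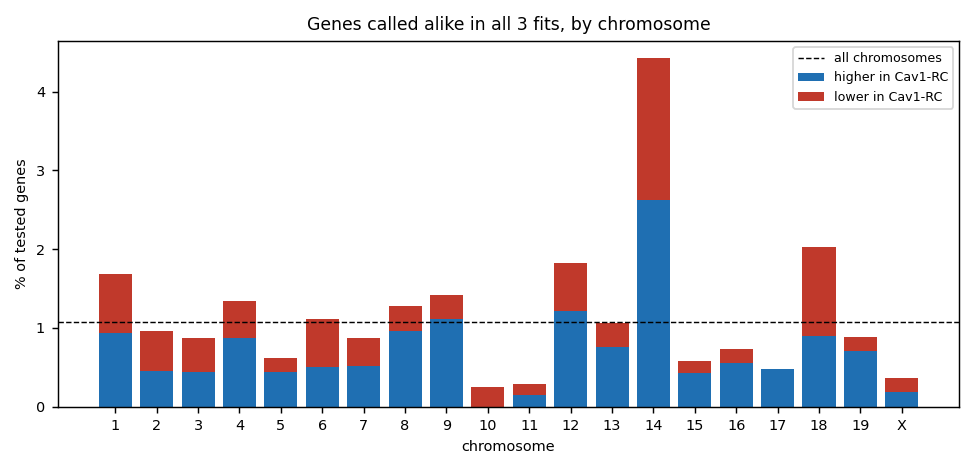
Share of the tested genes of each autosome and of chromosome X (percent) that were called in the same direction in all 3 fits, with genes higher in Cav1-RC in blue, genes lower in Cav1-RC in red and the share over all chromosomes (1.08%) as a dashed line. Chromosome 14 reaches 4.43%, above every other chromosome shown. Chromosome Y, with 1 of 7 tested genes called, is not drawn.

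Among the caveola genes, Cavin2 alone passed both thresholds in the 12 libraries, and 0 of 10 did so in the list-adjusted fit or in normoxia, beside 14.7%, 3.45% and 4.28% called over all genes. Cavin2, which helps to curve the caveolar membrane, measured 577, 670 and 764 CPM in Cav1-RC and 244, 292 and 414 CPM in Cav1-KO. The sides did not overlap (log2 fold change 1.13 ± 0.13, adjusted p = 3.5e-05), but the list-adjusted value was -0.14 (adjusted p = 0.715) and that in normoxia -0.55. Cavin1, without which caveolae do not form, had log2 fold changes of -0.42, -0.41 and -0.35 in the 3 fits. Cavin3 had -0.57 in the 12 libraries and Ehd2, which sits at the caveolar neck, 0.52, while the list-adjusted value of Ehd2 was -0.07. Cav2, the partner of Cav1 in the coat, measured 310 to 448 CPM against 330 to 534 CPM and had a log2 fold change of -0.03. The median over the list was 0.00 in the 12 libraries, -0.20 list-adjusted and -0.20 in normoxia, beside 0.00, 0.01 and 0.00 over all tested genes.

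Among the vasoactive and vessel-wall genes, the endothelin gene stood out in every fit. Edn1 encodes endothelin-1, a potent vasoconstrictor peptide made by endothelium, and lies at chr13:42301476-42307990. It measured 77.3, 223.4 and 280 CPM in Cav1-RC hypoxia and 33.2, 42.0 and 50.8 CPM in Cav1-KO hypoxia. Female Cav1-RC hypoxia replicate 3 was the low library at 77.3 CPM, the other 5 held 201 to 280 CPM, and Control libraries held 20.4 to 56.7 CPM. The log2 fold change was 2.32 ± 0.26 (adjusted p = 2.63e-05), with 2.24 in females and 2.39 in males. It was 2.68 ± 0.36 in the list-adjusted fit (adjusted p = 7.36e-05) and 2.75 in normoxia (adjusted p = 7.72e-07), where Cav1-RC libraries held 144 to 258 CPM. Without any 1 of the 3 listed libraries that set the term the list-adjusted value was 2.56 to 2.80. When the list-adjusted fit was restricted to the hypoxia groups, its Edn1 value was 2.66 (adjusted p = 0.0718).

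Slc6a2, the noradrenaline transporter, which clears noradrenaline from the blood in lung endothelium (chr8:92960079-93001667), measured 72.3, 104 and 182 CPM against 7.08, 9.98 and 28.9 CPM. No library overlapped, and the log2 fold change was 3.03 ± 0.27 (list-adjusted 2.71, adjusted p = 0.00189; normoxia 2.69). The size was 1.90 in the list-adjusted fit of female mice alone, with an adjusted p of 0.101. Rbpj, the DNA-binding factor through which Notch receptors act (chr5:53466152-53657362), measured 57.7, 59.7 and 64.6 CPM against 26.5, 29.5 and 31.2 CPM, while Control libraries held 46.7 to 74.7 CPM. It rose by 1.05 ± 0.06 on the log2 scale (adjusted p = 4.89e-07) and by 1.07 in normoxia, and was 0.65 higher in the list-adjusted fit (adjusted p = 0.000443), short of the fold threshold. Rbpj shares sequence with the pseudogene Rbpj-ps3, whose CPM went the other way. Summed over both, the level in hypoxia was 58.2 to 65.8 CPM in Cav1-RC and 29.5 to 34.8 CPM in Cav1-KO (log2 difference 0.93, exact permutation p = 0.00216). In normoxia the sides of the sum lay closer, at 55.3 to 78.2 CPM in Cav1-RC and 40.35 to 45.8 CPM in Cav1-KO. Rbpj-ps3 alone held 9.56 to 13.6 CPM in Cav1-KO normoxia.

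Of 10 arterial endothelial genes, 0 rose and 3 fell in the 12 libraries (median -0.38) and 1 fell list-adjusted (-0.35), beside 6.13% and 1.21% of all genes called lower. Of 30 angiogenesis genes, 3 rose and 0 fell (0.24) and 1 rose list-adjusted (-0.35), beside 8.61% and 2.24% called higher. Sox17, a transcription factor of arterial endothelium and a risk gene of pulmonary arterial hypertension, measured 87.5, 110 and 126 CPM against 186, 273 and 307 CPM. It fell by 1.23 ± 0.13, while the list-adjusted value was -0.57 (adjusted p = 0.0705) and that in normoxia -0.21. Leaving out Female Control hypoxia replicate 1 gave Sox17 a list-adjusted value of -0.89 (adjusted p = 0.00684), and leaving out Female Cav1-RC normoxia replicate 1 gave -0.36 (adjusted p = 0.324). Hey1, a Notch target, fell by 1.01 ± 0.17, with -0.47 list-adjusted. Its size ranged from -1.11 to -0.91 when single libraries were left out, so that its call rested on each of several libraries. Nos3 (chr5:24364810-24384474), the endothelial nitric oxide synthase, measured 48.2, 51.1 and 55.0 CPM against 90.5, 100 and 122 CPM without overlap. Its log2 fold change of -0.99 ± 0.08 (adjusted p = 4.11e-06) lay at the edge of the fold threshold, and the list-adjusted value was -0.34 (adjusted p = 0.184). Kdr, the main VEGF receptor of endothelium, rose by 1.36 ± 0.14, with 0.19 list-adjusted and -0.01 in normoxia.

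Dkk2, an extracellular regulator of Wnt receptors found in arterial endothelium (chr3:132085292-132180304), fell in both hypoxia fits. It measured 0.508, 0.863 and 1.09 CPM against 1.52, 4.44 and 7.81 CPM, with no overlap. The log2 fold change was -2.25 ± 0.33 (adjusted p = 0.000145), -2.47 list-adjusted (adjusted p = 0.00136) and -0.93 in normoxia (adjusted p = 0.066). Kcna5, a potassium channel of arterial smooth muscle, rose by 1.84 (list-adjusted 1.92), from 0.128 to 0.502 CPM in Cav1-KO to 0.580 to 1.65 CPM in Cav1-RC. Without Female Control normoxia replicate 1, its list-adjusted value was 1.53 (adjusted p = 0.0681). Rgs5, a pericyte regulator of G-protein signalling, measured 33.1 to 67.5 CPM against 66.4 to 243 CPM and fell by 1.25 (list-adjusted -1.39, normoxia -1.005). Its list-adjusted value was -1.32 (adjusted p = 0.0519) when Female Control hypoxia replicate 1 was left out, and -1.24 (adjusted p = 0.0716) in the absence of Female Cav1-RC normoxia replicate 1.

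Of 41 tested BMP and TGF-beta genes, 5 rose and 2 fell in the 12 libraries, near the 14.7% called over all genes, and 1 rose and 1 fell in the list-adjusted fit, near the 3.45% over all genes. Their median was 0.08 and -0.15 in these fits. Gdf2, which encodes the circulating ligand BMP9, had 76 counts summed over the Cav1-RC libraries and 2 over the Cav1-KO libraries (ratio 49.6, lower bound of the 95% counting interval 13.3), and Control libraries held 0 to 0.801 CPM. In 4 Cav1-KO libraries Gdf2 had 0 counts. It was called in the list-adjusted fit (adjusted p = 0.0202), but not without Female Cav1-RC normoxia replicate 1 (adjusted p = 0.0685). Bmp5, another ligand of the family, measured 23.7, 30.1 and 36.6 CPM against 4.42, 10.1 and 11.8 CPM and rose by 1.70 ± 0.19, while the list-adjusted value was -0.58 (adjusted p = 0.212). Bmpr2, the receptor most often mutated in heritable pulmonary arterial hypertension, measured 452 to 584 CPM against 338 to 647 CPM, with a log2 fold change of 0.08 (adjusted p = 0.658) and -0.57 list-adjusted (adjusted p = 0.0773). Tgfbr2, a TGF-beta receptor, rose by 1.25, with -0.16 list-adjusted.

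Of 25 pan-endothelial genes, 1 rose (Kdr) and 2 fell (Sox17 and Egfl7) in the 12 libraries, beside 14.7% called over all genes. Of the 25 values 19 were negative, with a median of -0.28. In the list-adjusted fit 0 rose and 2 fell, and 20 of 25 values were negative, with a median of -0.37. Their summed level was 7505 to 9326 CPM in Cav1-RC and 7446 to 10340.0 CPM in Cav1-KO, and none of the 25 was at 0. In bulk RNA, fewer cells of a type and less RNA per cell cannot be told apart. Egfl7, an endothelial matrix protein, fell by 1.02 ± 0.15, with 0.09 list-adjusted, and its size ranged from -1.10 to -0.95 without single libraries. Of 8 lymphatic endothelial genes, 0 were called in the 12 libraries and 2 fell in the list-adjusted fit, where 1.21% of all genes were called lower. Prox1, the factor that sets lymphatic identity, had log2 fold changes of -0.25 in the 12 libraries and -1.47 ± 0.21 list-adjusted (adjusted p = 0.000112), and Mmrn1 had -0.38 and -1.01. Mmrn2, a vascular matrix protein, had -0.13 and -1.06. The list-adjusted value of Mmrn1 was -0.83 without Female Control hypoxia replicate 1, and that of Mmrn2 was -0.92 without Female Cav1-RC normoxia replicate 1, both short of the fold threshold. Whether these values differ between the fits was not tested.

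The T cell, B cell and neutrophil lists held only higher calls in the 12 libraries, while 1 of 18 NK and cytotoxic genes rose and 3 fell (median -0.21). In the list-adjusted fit the NK and cytotoxic median turned to 0.25, with 1 gene higher and 0 lower. Over all genes, 8.61% were called higher in the 12 libraries, 2.24% in the list-adjusted fit and 2.96% in normoxia. Of 29 T cell genes 13 rose and 0 fell in the 12 libraries (median 0.93), and 7 rose and 0 fell in the list-adjusted fit (median 0.88), or 4 when Female Control normoxia replicate 1 was left out. Cd3e, a chain of the T cell receptor complex, measured 3.81, 4.80 and 7.63 CPM against 0.491, 1.14 and 2.10 CPM (log2 fold change 2.25 ± 0.26, list-adjusted 2.04, adjusted p = 0.00309). Cd8b1, of the CD8 co-receptor, measured 4.34, 6.46 and 7.85 CPM against 0.783, 1.18 and 1.65 CPM (2.39 ± 0.19, list-adjusted 1.75). The 2 sides did not overlap for either gene, and Control libraries spanned 1.62 to 8.07 CPM of Cd3e and 2.35 to 8.12 CPM of Cd8b1. In normoxia the T cell median was 0.44, with 1 of 29 called. The list-adjusted adjusted p of Cd8b1 was 0.0526 once Female Control normoxia replicate 1 was dropped.

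Of 20 B cell genes, 13 rose and 0 fell in the 12 libraries (median 1.17), 9 rose in the list-adjusted fit (1.44) and 6 in normoxia (0.84), beside 8.61%, 2.24% and 2.96% called higher over all genes. Ms4a1, which encodes CD20, measured 9.53, 15.6 and 22.1 CPM against 2.27, 3.85 and 8.45 CPM, and rose by 1.86 ± 0.22 (list-adjusted 1.17, adjusted p = 0.117). Without Female Control normoxia replicate 1 the list-adjusted fit called 1 of the 20. Of the immunoglobulin variable genes, 98 of 114 rose in the 12 libraries, 3 of 154 in the list-adjusted fit and 16 of 77 in normoxia, and 0 fell in any. Their counts share a source in clones of plasma cells, so these genes are not independent of each other. The summed B cell list spanned 632 to 7636 CPM (median 788) in Cav1-RC and 168 to 447 CPM (median 342.5) in Cav1-KO.

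Of 29 neutrophil genes, 14 rose and 0 fell in the 12 libraries (median 1.18) and 6 rose in the list-adjusted fit (1.01), beside 8.61% and 2.24% called higher over all genes. Mmp9, a gelatinase of neutrophil granules, measured 8.37, 22.8 and 28.9 CPM against 3.58, 4.60 and 10.2 CPM (2.01 ± 0.29, list-adjusted 1.63, adjusted p = 0.0351). Ngp, a granule protein of immature neutrophils, measured 5.32, 14.8 and 33.1 CPM against 0.333, 1.33 and 6.83 CPM (2.90 ± 0.57, list-adjusted 3.21). The sides overlapped at their edges for both genes. The list-adjusted adjusted p was 0.158 for Mmp9 and 0.248 for Ngp when Female Control normoxia replicate 1 was left out. It was 0.0852 and 0.0917 in the absence of Female Cav1-RC normoxia replicate 1. In normoxia 4 of 24 neutrophil genes were called, with a median of 0.18. The list-adjusted count of called neutrophil genes was 1 in the former fit and 0 in the latter. Cd74, the invariant chain of MHC class II, rose by 1.46 ± 0.15, from 539 to 786 CPM in Cav1-KO to 1461 to 2849 CPM in Cav1-RC, with 0.74 list-adjusted (adjusted p = 0.0834). Of 30 macrophage genes, 5 rose and 0 fell in the 12 libraries, near the 14.7% called over all genes, and 0 were called in the list-adjusted fit, beside 3.45% over all genes.

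**Figure D4:**
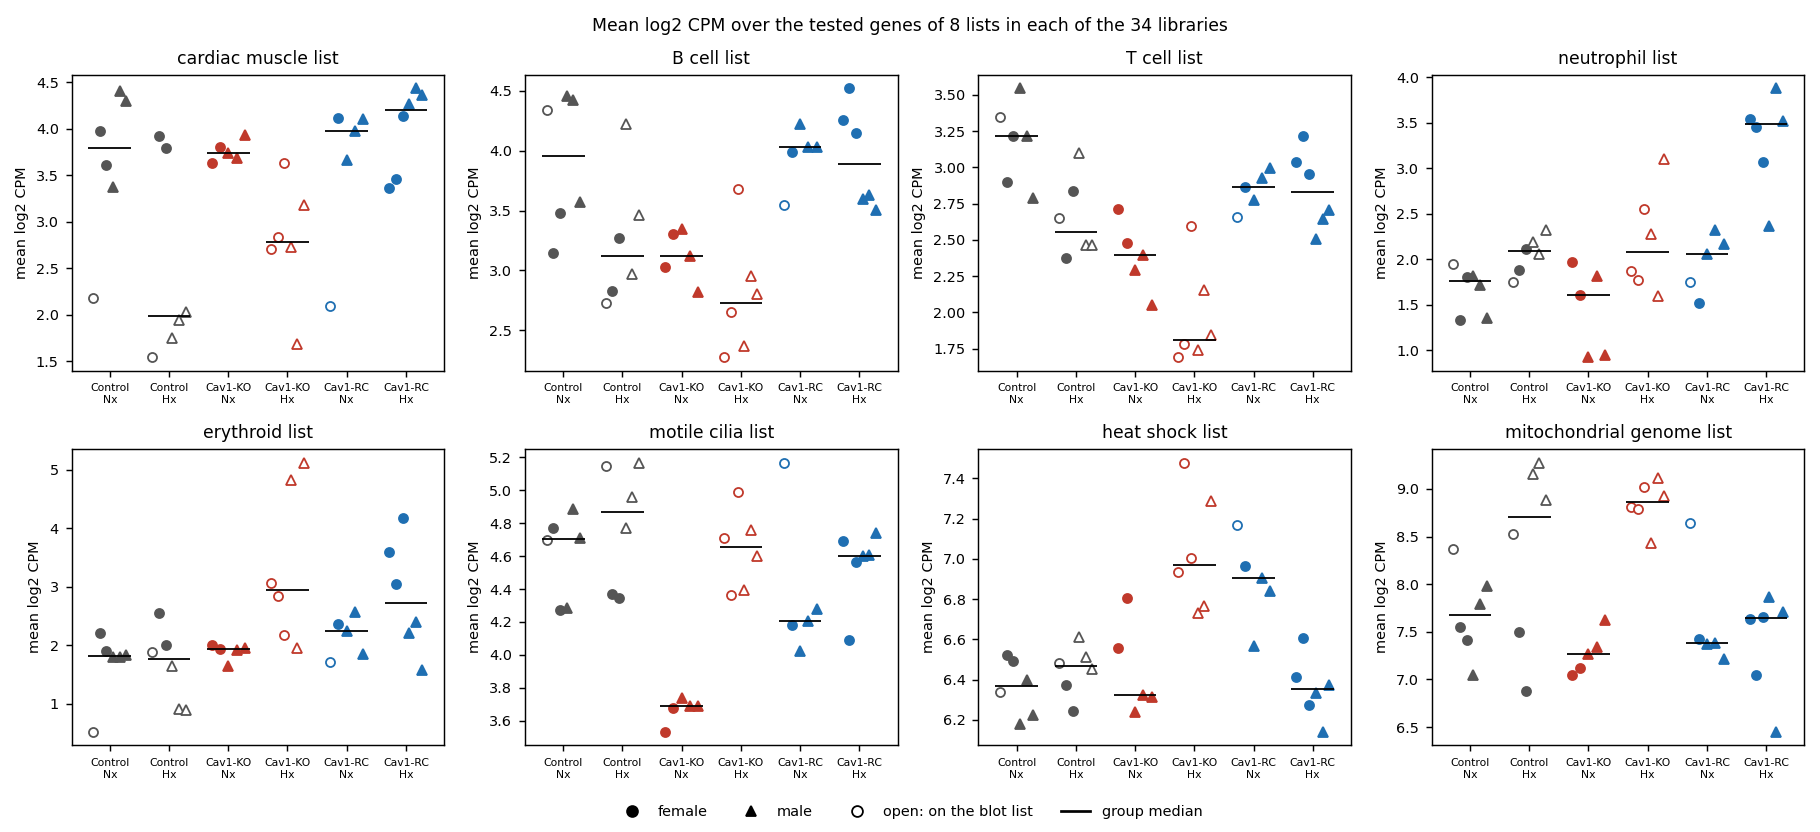
Mean log2 CPM over the tested genes of 8 lists (cardiac muscle, B cell, T cell, neutrophil, erythroid, motile cilia, heat shock and mitochondrial genome) in each of the 34 libraries, by genotype and oxygen (Nx, normoxia; Hx, hypoxia), with circles for females, triangles for males, open symbols for libraries on the blot list and a bar at the group median. In hypoxia the Cav1-RC medians lie above the Cav1-KO medians for the 3 immune lists shown and below them for heat shock and the mitochondrial genome, and open symbols sit high for the mitochondrial genome in every genotype.

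Of 60 motile cilia genes, 2 rose and 1 fell in the 12 libraries (median -0.16), beside 14.7% called over all genes. In the list-adjusted fit 2 rose and 0 fell, near the 3.45% called over all genes, with 58 of 60 values positive (median 0.57), and in normoxia 22 of 59 rose and 0 fell (median 0.86), beside 2.96% of all genes called higher there. The normoxia count of the motile cilia list was 7 without Male Cav1-RC normoxia replicates 1 and 2, whose sex-linked genes go against the label, and 5 without Female Cav1-RC normoxia replicate 1. Ccdc153, an axonemal gene, measured 75.0 to 117 CPM against 53.8 to 94.9 CPM in hypoxia, with log2 fold changes of 0.55, 1.63 (adjusted p = 0.000132) and 2.00 in the 3 fits. The club and secretory list showed 3 higher and 1 lower of 15 in the 12 libraries (median 0.10), 3 higher list-adjusted (0.67) and 7 higher in normoxia (1.04). Its normoxia median was 0.46 without Female Cav1-RC normoxia replicate 1. The list-adjusted count of this list was 0 when either Female Control normoxia replicate 1 or Female Cav1-RC normoxia replicate 1 was left out. Scgb3a2, a secretoglobin of club cells, fell by 1.01 ± 0.21, from 1230.0 to 3033 CPM in Cav1-KO to 643 to 1151 CPM in Cav1-RC, with 0.46 list-adjusted. Its size ranged from -1.16 to -0.78 without single libraries.

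Of 15 alveolar type 2 genes, 5 rose, 0 fell and 10 were not called in the 12 libraries (median 0.69), beside 8.61% of all genes called higher. In the list-adjusted fit 0 of the 15 were called (0.16), beside 3.45% over all genes. Slc34a2, the phosphate carrier of type 2 cells, measured 1082, 1420.0 and 2446 CPM against 351, 442 and 716 CPM and rose by 1.71 ± 0.19, with 0.07 list-adjusted. Fasn, fatty acid synthase, rose by 1.94 ± 0.23, with 0.04 list-adjusted. The 6 and 6 libraries did not overlap for either gene. Sftpc, the defining surfactant protein of the type, had a log2 fold change of 0.39 (adjusted p = 0.062). Of the alveolar type 1 genes, 3 of 14 rose (median 0.44), among them Emp2, and 0 were called list-adjusted (0.05).

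The cardiac list median changed sign between the hypoxia fits. Of 49 cardiac muscle genes 29 rose and 0 fell in the 12 libraries (median 1.20, beside 8.61% of all genes called higher), but 0 rose and 14 fell in the list-adjusted fit (median -1.05, beside 1.21% called lower). In normoxia 2 rose and 1 fell (median -0.16). Such transcripts in mouse lung come largely from the cardiac muscle sleeves of the pulmonary veins and from heart tissue taken along. Myom2, which cross-links thick filaments, measured 15.7, 30.2 and 55.0 CPM against 1.54, 5.36 and 10.5 CPM and rose by 2.32 ± 0.36 (adjusted p = 0.000221), while the list-adjusted value was -1.76 (adjusted p = 0.0297). Without any 1 of the 3 libraries that set the term, the list-adjusted Myom2 value was -2.06 to -1.42 and its adjusted p 0.0569 to 0.11. Myh6, the alpha myosin heavy chain, measured 297, 494 and 616 CPM against 56.4, 120 and 175 CPM and rose by 1.94 ± 0.25, with -1.20 list-adjusted (adjusted p = 0.0606). Myoz2 had 0.69 and -1.46, and Csrp3 had 1.01 and -1.68. The call of Csrp3 was lost without any 1 of 5 libraries, its size ranging from 0.81 to 1.31. Myh7, the slow (beta) myosin heavy chain, fell in the list-adjusted fit (-2.01, adjusted p = 0.0078) and in normoxia (-2.39), with -0.88 in the 12 libraries. Of the 19 genes called in opposite directions, 8 belong to the cardiac list, among them Ttn, Ckm, Lmod2 and Xirp2.

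The summed cardiac list was 1329 to 2579 CPM in Cav1-RC hypoxia and 634 to 1492 CPM in Cav1-KO hypoxia. Control libraries ranged from 581 to 2808 CPM. How much heart muscle went into each lung sample was not tested. With Female Control normoxia replicate 1, Female Control hypoxia replicate 1 or Female Cav1-RC normoxia replicate 1 left out, the list-adjusted cardiac median was -1.42, -0.75 and -1.11, with 9, 3 and 4 genes called lower. Smooth muscle genes had a median of -0.02 in the 12 libraries (3 of 20 higher, beside 8.61% of all genes) and -0.05 list-adjusted (0 called, beside 3.45%).

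**Figure D5:**
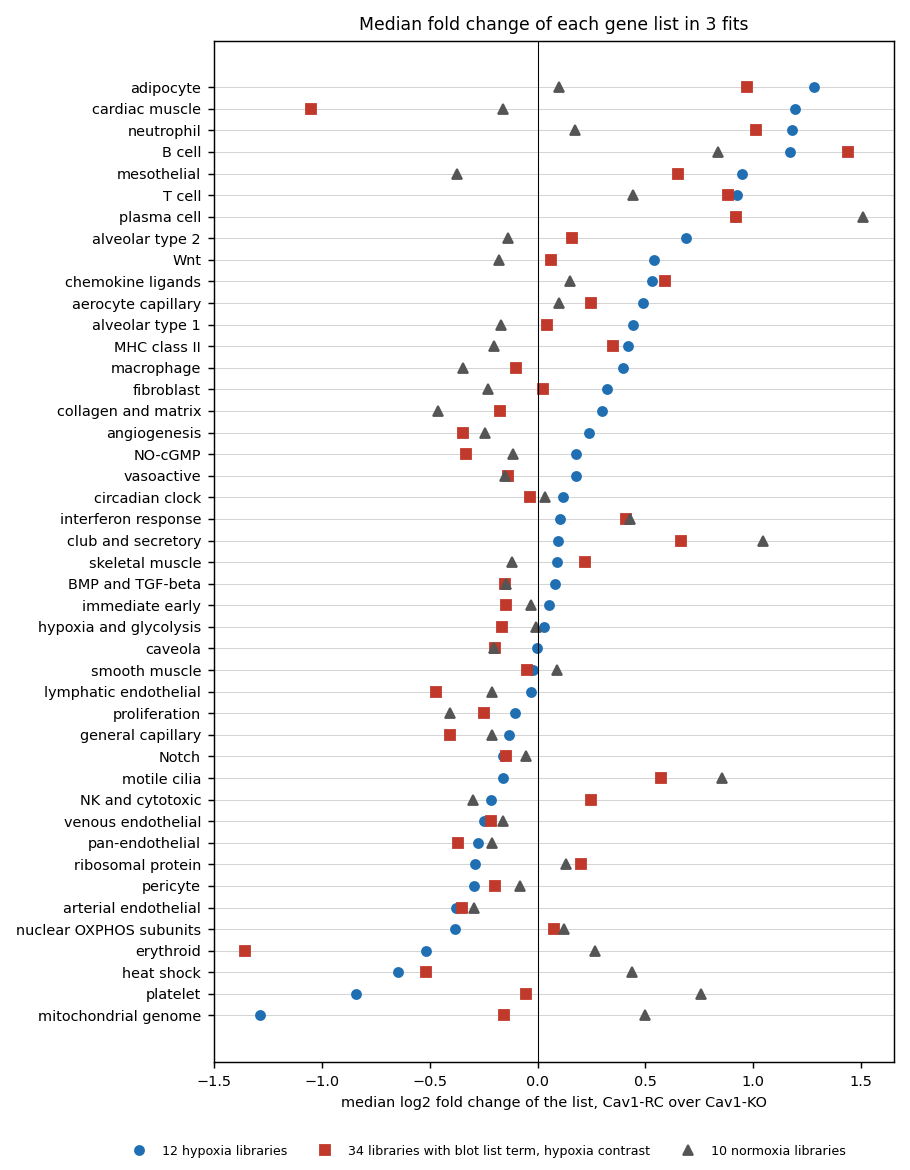
Median log2 fold change (Cav1-RC over Cav1-KO) over the tested genes of each list shown, in the 12 hypoxia libraries (circles), in the list-adjusted fit of 34 libraries (squares) and in the 10 normoxia libraries (triangles). The B cell, T cell and neutrophil lists lie above 0 in all 3 fits, and the cardiac muscle list lies at 1.20 in the first and at -1.05 in the second.

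Among matrix genes, Timp3 and Col12a1 turned sign with the list term, and Lox kept its sign but not its call. Timp3, an inhibitor of matrix metalloproteases, measured 408, 579 and 844 CPM against 35.3, 67.3 and 108 CPM and rose by 3.16 ± 0.25 (adjusted p = 2.97e-06), while the list-adjusted value was -0.31 (adjusted p = 0.775) and Control libraries spanned 30.9 to 850 CPM. Col12a1, a fibril-associated collagen, rose by 1.96 ± 0.17, with -0.35 list-adjusted. Lox, which cross-links collagen and elastin, fell by 1.19 ± 0.10, with -0.83 list-adjusted (adjusted p = 0.0588) and -0.79 in normoxia. Over the 32 matrix genes, 4 rose and 2 fell in the 12 libraries (median 0.30), near the 14.7% called over all genes. In the list-adjusted fit 0 were called (-0.18), beside 3.45% over all genes.

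Of the 13 genes of the mitochondrial genome, 11 fell and 0 rose in the 12 libraries (median -1.29), beside 6.13% of all genes called lower, but 0 were called in the list-adjusted fit (median -0.15) or in normoxia (0.50). Among the normoxia libraries, Female Cav1-RC normoxia replicate 1, which is on the blot list, had 4.43% of its counts in these genes, while the other 4 Cav1-RC libraries had 1.77% to 1.92%. Without it the normoxia median of the mitochondrial genome list was 0.13. mt-Cytb, of respiratory complex III, measured 1753, 3340.0 and 3817 CPM against 6625, 7826 and 8358 CPM and fell by 1.26 ± 0.19, with -0.15 list-adjusted. The nuclear-encoded subunits of the respiratory chain had a median of -0.38 in the 12 libraries (1 higher and 2 lower of 91) and 0.08 list-adjusted.

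Heat shock genes are the chaperones that cells make when proteins unfold, under the factor HSF1, which binds inverted repeats of GAA in promoters. Of 22, 6 fell and 0 rose in the 12 libraries (median -0.65), 2 fell in the list-adjusted fit (-0.52), beside 6.13% and 1.21% of all genes called lower, and 2 rose in normoxia (0.44). The normoxia median was 0.26 when Female Cav1-RC normoxia replicate 1 was left out. Without single listed libraries that set the term, the list-adjusted count of heat shock genes was 0 to 4. Hsph1, a large HSP110 chaperone, measured 48.0, 64.4 and 96.2 CPM against 125, 164 and 282 CPM. It fell by 1.503 ± 0.23 (list-adjusted -1.24, adjusted p = 0.0246) and rose by 1.25 in normoxia. Without Female Control normoxia replicate 1 its list-adjusted value was -0.84 (adjusted p = 0.212). Hspe1, the mitochondrial co-chaperonin HSP10, measured 41.1, 49.9 and 65.3 CPM against 80.2, 110 and 158 CPM and fell by 1.20 ± 0.16 (list-adjusted -0.56, adjusted p = 0.115). Hspa1b, an inducible HSP70, fell by 1.85 (list-adjusted -2.31, adjusted p = 0.0255) and rose by 1.41 in normoxia. Its list-adjusted adjusted p was 0.16 when Female Control normoxia replicate 1 was left out and 0.0822 in the absence of Female Cav1-RC normoxia replicate 1. The promoters of Hspe1 and Hspa1b are shown because both genes fell together in the 12 libraries and both carry the element. They are the 250 bases before the RefSeq transcription start, read 5′ to 3′ along the gene (GRCm38.p6), with matches to GAANNTTC in capitals.
Hspe1, chr1:55087898-55088147, plus strand: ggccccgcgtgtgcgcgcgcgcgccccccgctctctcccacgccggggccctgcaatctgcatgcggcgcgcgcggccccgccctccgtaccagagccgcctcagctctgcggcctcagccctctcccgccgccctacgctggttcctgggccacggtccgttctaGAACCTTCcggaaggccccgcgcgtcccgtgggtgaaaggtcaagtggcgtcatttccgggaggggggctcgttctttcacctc
Hspa1b, chr17:34959239-34959488, minus strand: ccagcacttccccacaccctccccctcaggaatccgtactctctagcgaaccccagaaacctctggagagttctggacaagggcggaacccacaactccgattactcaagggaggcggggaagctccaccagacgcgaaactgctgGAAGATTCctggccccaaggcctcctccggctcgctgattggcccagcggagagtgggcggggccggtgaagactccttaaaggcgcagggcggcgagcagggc
The match begins 84 bases before the start in Hspe1 and 104 bases before it in Hspa1b. Searched on both strands (the motif is its own reverse complement), the 8 letters occurred in 6.69% of 32851 RefSeq promoter windows of 250 bases and in those of 7 of the 17 heat shock genes that matched a window. These 7 were Hspa1a, Hspa1b, Dnaja1, Hspb1, Hspd1, Hspe1 and Fkbp4. Hsph1 and Stip1, which also fell in the 12 libraries, had no match in their windows.

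Erythroid and platelet genes are given for each sex. Erythroid genes had a median of 0.38 in females, with 7 of 21 higher and 0 lower, beside 8.98% called over all genes. In males the median was -2.67, with 0 higher and 12 of 18 lower, beside 14.8% over all genes. With the list term the female median turned to -0.18, with 1 higher and 0 lower of 24, beside 2.13% over all genes. The male median was then -3.70, with 0 higher and 13 lower of 24, beside 2.19%. Hba-a2, an alpha globin, measured 43.8, 150 and 431 CPM in the 3 female Cav1-RC libraries and 430, 781 and 979 CPM in the 3 female Cav1-KO libraries. In males it measured 30.6, 56.5 and 75.7 CPM against 103, 3082 and 3455 CPM, so that 2 male Cav1-KO libraries were far above the rest. Over both sexes Hba-a2 fell by 3.57 ± 0.72 (list-adjusted -5.004), and without Female Control normoxia replicate 1 the list-adjusted adjusted p was 0.0543. Platelet genes had medians of -0.22 in females and -1.51 in males, where 7 of 12 fell. With the list term these medians were 0.48 and -0.615, and 0 genes were called in either sex. None of the differences between the sexes in the 12 libraries passed the test of the difference itself.

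The female and male responses were tested against each other in the 12 libraries. In females 987 genes rose (5.58%) and 601 fell (3.4%), together 8.98% of 17681. In males 1402 rose (8.16%) and 1132 fell (6.59%), together 14.8% of 17171. A total of 663 genes were called higher and 409 lower in both sexes, which was 71.8% of the female calls tested in males and 43.7% of the male calls tested in females, and 4 were called in opposite directions. The difference between the sexes was called for 0 of 18237 genes with edgeR, of which 756 had an unadjusted p under 0.05, and for 10 genes with DESeq2. The smallest adjusted p was 0.218, that of Ntsr2, a neurotensin receptor (female minus male log2 difference -7.53). Edn1, Rbpj and Nxpe4 differed between the sexes by -0.16, 0.11 and 0.10 on the log2 scale. Cardiac muscle genes rose in 8 of 49 in females and in 34 of 48 in males, with 1 male gene lower, and a difference between the sexes was called for 0 of 49. With the list term, 267 genes rose (1.34%) and 157 fell (0.79%) in females, together 2.13%. In males 278 rose (1.4%) and 158 fell (0.795%), together 2.19%.

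The genotype difference was also tested between oxygen levels. Without the list term it was larger or smaller in hypoxia than in normoxia for 3265 of 19250 genes (17%), with 1596 more positive (8.29%) and 1669 more negative (8.67%) in hypoxia. With the list term the count was 3 of 19870 (0.0151%), namely 1 more positive (0.00503%), Tmem178 (1.45), and 2 more negative (0.0101%), Arid5b (-1.10) and Cbl (-1.24), while 2387 genes had an unadjusted p under 0.05. Trim12a, Trim5 and Trim30d, antiviral TRIM genes of chromosome 7 (Trim12a at chr7:104299894-104315466), were among the genes called without the list term. Trim12a was at 0 to 0.120 CPM in the normoxia libraries labelled Cav1-RC, at 10.6 to 23.8 CPM in those of hypoxia, and at 32.1 to 35.4 CPM and 31.3 to 63.9 CPM in Cav1-KO normoxia and hypoxia. Control hypoxia libraries spanned 0 to 50.1 CPM. Its log2 difference between the oxygen levels was 7.48 ± 0.43 without the list term, and 8.25 with it (adjusted p = 0.164). Edn1 and Rbpj had differences of -0.42 (adjusted p = 0.296) and -0.01 (adjusted p = 0.931), so a dependence on oxygen was not detected for either gene. For Rbpj this covers the gene alone, and its sum with Rbpj-ps3 was not tested between oxygen levels.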

How the data were processed

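Whole lung RNA was extracted with TRIzol, made into poly-A selected, strand-marked (dUTP) libraries and sequenced as read pairs. Per the labels, reads were aligned to mm10 with HISAT2 2.0.5 and counted per gene with featureCounts 1.5.0-p3. Counting used the default settings of the tool, which do not use strand, so overlapping and antisense genes may share reads. The authors deposited raw counts for 54532 genes and FPKM values, which are counts scaled by gene length and library size. The counts were used for the main results and the FPKM values for an alternative.

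Of 35 libraries, 34 had a definite group in the labels. The label of 1 gave an uncertain identity, possibly female Cav1-KO normoxia, and this library was given no group and entered no comparison. Each group held 3 mice, except the female Cav1-KO and Cav1-RC normoxia groups with 2 each. Genes were filtered with filterByExpr and scaled by TMM, and the quasi-likelihood test of edgeR 4.0.16 was run in R 4.3.3 with sex as part of the group. P-values were adjusted over all tested genes (Benjamini-Hochberg). CPM are TMM-scaled, except those of the library without a group, which are scaled to its total. Totals of 12651977 to 27366004 counts in the 12 libraries set the precision, and 3 counts were taken as the limit that a count of 0 allows. The blot list came from the animals that the study names for its western blots. Alternatives used DESeq2 1.42.0, limma 3.58.1 on log2(FPKM + 1) or log2(FPKM + 0.1), no count filter, protein-coding genes, a replicate block and single libraries left out. The counting of calls was tested on simulated data.

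The members and gene lists were chosen with earlier results of these data known. Named genes were the caveola genes, genes the study names for this comparison, the 8 higher and 8 lower genes of lowest adjusted p in each hypoxia fit (called, and without overlap or called alike in both), up to 4 genes of each list, and the 3 of lowest adjusted p each way in the sex and oxygen tests. The result of 1 gene list is not reported here. Genes named outside this rule were chosen after their values were seen. Correlations of the deviations of same-numbered libraries from their group means were -0.011 to 0.131, so replicate numbers were not taken as pairs.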

Additional observations from a re-analysis of the deposited data

Results flagged for a closer look

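The difference between Cav1-RC and Cav1-KO was itself different in hypoxia and in normoxia for 3265 genes without the list term and for 3 genes with it. The blot list holds all 6 Cav1-KO hypoxia libraries and 1 of the 5 Cav1-RC normoxia libraries, so oxygen level and the list cannot be told apart in the first count. Without Female Cav1-RC normoxia replicate 1 that count was 1863.

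The hypoxia minus normoxia difference was 7.48 on the log2 scale for Trim12a, 5.22 for Trim5 and 4.86 for Trim30d, all on chromosome 7. With the list term these values were 8.25, 4.12 and 5.28 (adjusted p = 0.164, 0.442 and 0.245). It was -2.84 for Dnase1l2, -1.30 for Pnrc1, whose product is a nuclear receptor coactivator, and -2.71 for mt-Rnr1, a ribosomal RNA of the mitochondrion.

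With the list term, the difference passed the test for Tmem178 (1.45), Arid5b (-1.10) and Cbl (-1.24). Without the term the values were 1.23, -0.555 and -0.23 (adjusted p = 8.29e-05, 0.0036 and 0.317), so only Tmem178 passed both thresholds either way. Tmem178 measured 16.3 to 24.4 CPM in Cav1-RC hypoxia and 5.12 to 7.03 CPM in Cav1-KO hypoxia, while Control libraries held 15.6 to 28.8 CPM.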

How the results depend on the processing

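With the list term, the share of tested genes called was 2.13% in females (8.98% without it), 2.19% in males (14.8%), 3.45% over both sexes (14.7%) and 0.0151% for the oxygen difference (17%). Among named genes called in the 12 libraries or with the list term, the signs of Cavin2 (-0.14), Myom2 (-1.76), Myoz2 (-1.46), Csrp3 (-1.68), Bmp5 (-0.58), Egfl7 (0.09), Tgfbr2 (-0.16), Prkg1 (-0.68), Scgb3a2 (0.46), Sntn (0.12), Myh6 (-1.20), Ryr2 (-0.0783), Col12a1 (-0.35) and Timp3 (-0.31) turned. A further 8 named genes, called in neither fit, also turned sign. So did the NO-cGMP list median (-0.33), the vasoactive list median (-0.135), the BMP and TGF-beta list median (-0.15), the angiogenesis list median (-0.35), the cardiac muscle list median (-1.05) and the ribosomal protein list median (0.20), each beyond its spread within groups in both fits. Other list medians turned without passing that spread in both fits, such as motile cilia (0.57), macrophage (-0.10) and matrix genes (-0.18). The cause was not tested. Of 118 named genes, 60 kept direction and side of the threshold with the list term, 97 with limma on log2(FPKM + 1) and all 118 with DESeq2. With protein-coding genes only, 105 did, 1 lost and 1 gained its call, and the others are not protein coding.

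Without the fold threshold the called share was 20.8% (females), 44.5% (males), 52.6% (both sexes), 7.98% (list-adjusted), 9.38% (normoxia) and 42.8% (oxygen difference). With limma on log2(FPKM + 1) it was 3.43%, 5.12% and 4.63% (750, 1121 and 1013 genes) in females, males and both, and 2.85% in both without a filter. Protein-coding genes alone gave 11.3% (1707 genes). The sex difference was called for 0.0548% (10 genes) with DESeq2 and 0.47% (159 genes) without a count filter. The list-adjusted share was 1.21% in female mice and 0.122% (23 genes) in the hypoxia groups. The normoxia share was 2.4% without libraries whose sex-linked genes go against the label.

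With single libraries left out, the share ranged from 4.6% to 9.86% in females (4.6% without Female Cav1-KO hypoxia replicate 2, 4.95% without replicate 1), from 11.8% to 17.8% in males, from 13.5% to 16.3% over both sexes, from 0 to 0.0479% for the sex difference (9 genes without Male Cav1-KO hypoxia replicate 2, 1 without Female Cav1-RC hypoxia replicate 2), from 2.1% to 4.49% list-adjusted (2.1% without Female Control normoxia replicate 1, 2.27% without replicate 3), from 2.46% to 9.35% in normoxia (2.46% without Female Cav1-KO normoxia replicate 1, 9.35% without Female Cav1-RC normoxia replicate 2) and from 9.25% to 23.7% for the oxygen difference (9.25% without Female Cav1-RC normoxia replicate 1). With each of the 34 libraries left out, genes called in both hypoxia fits ranged from 186 (without Female Control normoxia replicate 1) to 431, and those called in all 3 fits numbered at least 138, with 162 after leaving out libraries whose sex-linked genes go against the label.

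With the replicate number as a block, which the labels do not tie to shared animals, the called share was 8.13% (females), 14% (males), 14.6% (both), 3.8% (normoxia), 16.4% (oxygen difference) and 0.337% (list-adjusted, 67 genes against 686). The list term rests on 3 listed and 5 unlisted female libraries, and values of genes with few counts are limited by depth.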

Other observations

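Other gene lists were measured in the same fits, in which 14.7% (12 libraries) and 3.45% (list-adjusted) of all genes were called. Of 32 Wnt genes, 6 rose and 3 fell in the 12 libraries (median 0.54) and 0 rose and 1 fell list-adjusted (0.06). Of 8 mesothelial genes, 4 rose and 0 fell (0.95), with 1 higher list-adjusted (0.65) and a median of -0.37 in normoxia. Of 13 adipocyte genes, 7 rose and 0 fell (1.28), with 1 higher and 1 lower of 15 list-adjusted (0.97). Of 28 chemokine genes, 7 rose and 0 fell (0.53), and 3 rose list-adjusted (0.59), or 0 when Female Control normoxia replicate 1 or Female Cav1-RC normoxia replicate 1 was left out. Of 41 interferon response genes, 7 rose and 1 fell (0.11), and 0 were called list-adjusted (0.41). Natural killer genes had 1 higher and 3 lower of 18 (-0.21), with 1 higher and 0 lower list-adjusted (0.25). Of 48 proliferation genes, 1 rose and 1 fell (-0.10), and of 34 hypoxia and glycolysis genes, 3 rose and 0 fell (0.03).

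The library without a group, labelled as possibly female Cav1-KO normoxia, held 30930450 counts, with 4.43 CPM of Cav1, 19.8 of Edn1, 28.3 of Rbpj, 1.26 of Nxpe4 and 1.84 of Rpl29.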
